A study of Mus musculus with 8 samples.

Results

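The genes described are the subunits of heterotrimeric G proteins and the RGS proteins of N2A cells, a mouse neuroblastoma line that carries the cannabinoid 1 receptor (CB1R). They were taken by symbol: the Gna genes for alpha subunits, Gnb1 to Gnb5, the Gng and Gngt genes for gamma subunits, and the numbered Rgs genes. The rule found 45 of the 16974 genes of the table used, namely 15 alpha, 5 beta, 11 gamma and 14 RGS genes. Of these, 32 were listed in all 8 libraries with a mean FPKM (fragments counted per kilobase of transcript and per library size) of at least 1, and 13 were not.

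The cells were kept in serum-free medium with albumin and then received 2 µM HU210, an agonist of the CB1R, or drug-free DMSO. Polyadenylated RNA was collected at 4 times, from 2 h to 8 h after the addition. Every condition (HU210 or DMSO at 1 of these times) is 1 library, made by pooling 2 to 3 experiments, so that no value at a single time point has a replicate. All groups were starved of serum in the same way, the DMSO library of the same hour is the control, and untreated cells at time zero were not analysed here.

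A heterotrimeric G protein passes the signal of a receptor to the inside of the cell. The activated receptor loads the alpha subunit with GTP, which frees it from the beta-gamma dimer, and both parts then act on effectors. RGS proteins end the signal by speeding up the hydrolysis of GTP by alpha subunits, mostly those of the Gi/o and Gq families. The CB1R acts mainly through Gi and Go subunits. Gi alpha subunits inhibit adenylyl cyclase, and Go is the most abundant G protein of brain membranes.

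The last 11 codons of an alpha subunit form the tail that meets the receptor. They are given here for the 10 expressed alpha genes whose tail is printed, from the GENCODE vM1 transcript models on mm9, as coding exon sequence on the strand of the gene. Capitals mark the fourth codon from the end, which in most Gi/o subunits encodes the cysteine that pertussis toxin modifies (TGT or TGC).
Gnai2 (chr9:107517969-107518001, minus strand): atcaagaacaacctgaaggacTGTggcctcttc
Gnai3 (chr3:107912343-107912375, minus strand): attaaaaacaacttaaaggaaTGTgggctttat
Gnao1 (chr8:96490920-96490952, plus strand): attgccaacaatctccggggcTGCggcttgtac
Gnat2 (chr3:107903686-107903718, plus strand): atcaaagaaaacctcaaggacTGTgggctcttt
Gnaz (chr10:74477922-74477954, plus strand): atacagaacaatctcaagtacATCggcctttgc
Gnas (chr2:174171854-174171886, plus strand): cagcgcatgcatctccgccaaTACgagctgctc
Gna11 (chr10:80993543-80993575, minus strand): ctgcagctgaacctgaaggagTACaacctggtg
Gnaq (chr19:16457849-16457881, plus strand): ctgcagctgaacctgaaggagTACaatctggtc
Gna12 (chr5:141236506-141236538, minus strand): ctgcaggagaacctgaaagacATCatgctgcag
Gna13 (chr11:109257765-109257797, plus strand): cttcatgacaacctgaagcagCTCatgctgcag

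The cysteine codon was present in 4 of the 10 tails, those of Gnai2, Gnai3, Gnao1 and Gnat2. Gnaz, the Gi family member that resists the toxin, has an isoleucine codon (ATC) there. Gna11 and Gnaq matched at 31 of 33 bases, Gnai2 and Gnat2 at 27, Gna12 and Gna13 at 26, and Gnai2 and Gnai3 at 24. The matches did not follow the families throughout. Gna12 and Gna11, of different families, matched at 23, and Gnao1 and Gnat2, both Gi/o genes, at 17. Gna13, Gnao1 and Gnas have further annotated transcripts with other coding ends, which a value per gene cannot separate.

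Gamma subunits end in a short motif whose last codon decides the lipid that anchors the beta-gamma dimer to the membrane: leucine calls for geranylgeranyl and serine for farnesyl. The last 4 codons of the 3 most abundant gamma mRNAs and of Gngt2, the cone transducin gamma subunit, are shown with the last codon in capitals.
Gng5 (chr3:146166335-146166346, plus strand): tgctcctttTTG
Gng2 (chr14:20695032-20695043, minus strand): tgcgccatcCTT
Gng10 (chr4:59052210-59052221, plus strand): tgtgctctaCTT
Gngt2 (chr11:95706908-95706919, plus strand): tgtgtgctaAGC

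The 3 abundant gamma mRNAs carry a leucine codon and Gngt2 a serine codon (AGC). Each of these tails starts with the cysteine codon to which the lipid is attached.

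The libraries carried the mRNAs of sympathetic neuroblastoma cells. Of 13 markers of that type, 10 passed the filter on low values, among them Gata2, Hand2 and Stmn2, while Nefl and Nefm were near 0 and Tubb3 was not analysed here. Markers of other cell types were low: Col1a1, Gfap, Cd68, Krt8 and Cdh5 had a mean FPKM of 0.263, 0.189, 0.355, 0.114 and 0.0653, although the myelin mRNA Mbp was at 4.33. The correlation of log2(FPKM + 1) between libraries across genes was 0.973 to 0.993. The 4 h libraries stood apart by base composition: over 10590 genes, the Spearman correlation of a library's deviation from the gene's mean with GC content was 0.47 in the HU210 library of 4 h and -0.48 in the DMSO library of 4 h, against -0.17 to 0.29 in the other 6. The part of this in the values at 4 h was not tested beyond the removal of the GC and length trend given below. The table holds no read counts, so the precision that depth gives an FPKM is unknown, and in bulk RNA a change in the make-up of the cells and a change in RNA per cell cannot be told apart.

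Among the alpha genes, Gnas had the highest FPKM, a value per gene that cannot be separated by transcript. Gnas, which encodes the alpha subunit that stimulates adenylyl cyclase, had an FPKM of 600, 569, 632 and 646 with HU210 and of 645, 707, 535 and 555 with DMSO, here and below in order of time from 2 h to 8 h. It ranked 71 of 15894 genes by mean FPKM and made up 65.5% to 68.9% of the summed FPKM of the alpha subunits in each library. Gnas is an imprinted locus with several first exons, and its exons overlap those of AF085738 and Nespas on the opposite strand, whose reads cannot be told apart if counting did not use strand. Gnal, the related subunit of olfactory and striatal neurons, was at 1.47 to 2.42.

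Of the 7 Gi/o alpha genes, 5 passed the filter. Gnai2, a Gi subunit, was the most abundant, at 70.5, 72.9, 77.4 and 73.1 FPKM with HU210 and 75.7, 76.1, 65.3 and 67.1 with DMSO. Gnao1, the Go alpha subunit, was at 42.9, 40.7, 50.7 and 44.4 with HU210 and 42.9, 46.3, 51.1 and 45.5 with DMSO. The highest Gnao1 value in each treatment was that of 6 h, and the HU210 and DMSO values overlapped.

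Gnai3, another Gi subunit, varied more. Its FPKM was 33.9, 29.9, 39.1 and 37.3 with HU210 and 38.5, 50.8, 32.3 and 35.4 with DMSO. The DMSO library of 4 h held the highest of the 8 values and the HU210 library of 4 h the lowest. Gnai2 exceeded Gnao1 and Gnai3 in every library, whereas Gnao1 and Gnai3 overlapped in range.

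Gnaz, whose product hydrolyses GTP slowly and is a substrate of RGS proteins of the RZ group, was at 3.67, 4.98, 6.67 and 5.96 with HU210 and 4.23, 5.44, 5.77 and 6.00 with DMSO. Both 2 h libraries were the lowest of their treatment. Gnat2, the cone transducin alpha subunit, was at 5.23 to 8.29. The rod transducin gene Gnat1, which lies 39.1 kb from Gnai2 on chromosome 9, had a mean of 0.0126, and Gnat3, the taste subunit gustducin, was listed only at 2 h and 4 h, at 0 in all 4 libraries.

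In the Gq family, which activates phospholipase C beta, Gna11 was the more abundant at 40.5 to 48.0 FPKM. Gnaq was at 6.92, 5.71, 8.96 and 8.39 with HU210 and 7.10, 9.39, 6.23 and 6.87 with DMSO, so that its lowest and highest values were again those of 4 h. The Gq genes Gna15 and Gna14 had means of 0.583 and 0.0124. Both are direct neighbours of expressed members: Gna15 lies 4.50 kb from Gna11 on chromosome 10 and Gna14 lies 48.2 kb from Gnaq on chromosome 19.

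Both subunits of the G12 family, which act on guanine nucleotide exchange factors, were well expressed. Gna13 was at 37.2, 36.5, 51.1 and 47.7 with HU210 and 42.2, 51.1, 43.0 and 43.0 with DMSO. Gna12 was at 23.3, 28.0, 35.7 and 32.4 with HU210 and 26.8, 31.5, 28.0 and 31.2 with DMSO. The lowest Gna12 value in each treatment was that of 2 h.

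All 5 beta subunits passed the filter, and 2 of them carried nearly all the beta mRNA. Gnb1 was at 296, 303, 378 and 380 FPKM with HU210 and 343, 384, 283 and 332 with DMSO, and ranked 167 of 15894 genes. Gnb2 was at 264, 344, 263 and 268 with HU210 and 289, 259, 286 and 307 with DMSO, and ranked 217. The median share of the summed beta FPKM was 51.4% for Gnb1 and 44.5% for Gnb2.

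The order of these 2 genes differed between the treatments at 4 h and, the other way round, at 6 h. At 4 h Gnb2 held 51.1% of the beta sum with HU210 and 38.6% with DMSO, while Gnb1 held 45.0% and 57.2%. At 6 h Gnb2 held 39.2% with HU210 and 48.1% with DMSO, and Gnb1 56.5% and 47.7%. Gnb1 has a GC content of 48.1% and Gnb2 of 59.95% in the longest coding transcript, and the 4 h values with the GC and length trend removed are given below. Gnb4 was at 14.3 to 17.3 FPKM, Gnb5, the beta subunit that pairs with RGS proteins of the R7 group, at 6.41 to 8.32, and Gnb3, the cone beta subunit, at 2.39 to 3.53.

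Of the 11 gamma genes, 8 passed the filter. Gng5 was the most abundant in median share (38.9% of the gamma sum), followed by Gng2 (25.8%) and Gng10 (22.5%). Gng5 was at 59.1, 42.0, 63.5 and 44.2 FPKM with HU210 and 66.8, 51.1, 53.5 and 30.7 with DMSO. The 8 h DMSO library held the lowest value, and there Gng2 (34.6) exceeded Gng5 (30.7).

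Gng10 was at 31.6, 27.4, 32.6 and 28.3 with HU210 and 34.8, 32.8, 24.4 and 21.6 with DMSO. In DMSO its 2 later values were below its 2 earlier values, and the HU210 values lay between 27.4 and 32.6. Its exons share 946 bp with Gm20503 on the same strand, so that its reads could be split between the models.

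Gngt2 was at 2.73, 2.92, 3.25 and 4.18 with HU210 and 4.14, 5.68, 2.43 and 2.99 with DMSO. Gng4 was at 2.28, 2.62, 2.30 and 2.22 with HU210 and 2.45, 4.53, 1.78 and 3.55 with DMSO. For Gng4 the HU210 libraries lay between 2.22 and 2.62, within the spread of the DMSO libraries. Gng3, a neuronal gamma subunit, was at 5.30 to 6.78, Gng8 at 3.24 to 4.39 and Gng7 at 1.04 to 1.5, while Gng11, Gng12 and Gng13 stayed under the filter. Exons of Gngt2 and Gng3 overlap those of Abi3 and Bscl2 on the opposite strand (234 and 398 bp), and those of Gna13, Gnao1 and Gnal overlap opposite genes by 151, 164 and 365 bp.

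The RGS genes were expressed at lower levels, with a sum of 62.2 to 72.5 FPKM against 816 to 1029 for the alpha subunits. Rgs19, a member of the RZ group that acts on Gi/o subunits, was at 28.1, 32.7, 31.5 and 28.2 with HU210 and 33.1, 25.3, 32.8 and 27.2 with DMSO. It alone made up 40.8% to 47.7% of the RGS sum. Its values in both treatments covered about the same range.

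Rgs7, the leading R7 member, was at 10.8, 8.83, 10.8 and 11.2 with HU210 and 11, 11.9, 9.24 and 12.6 with DMSO. Rgs9, the R7 protein of photoreceptors and striatum, was at 1.16 to 1.54, and Rgs6 and Rgs11 had means of 0.00755 and 0.132. Rgs3 (7.79 to 9.56) and Rgs4 (1.96 to 2.73) were the expressed members of the R4 group, and the neighbour of Rgs4 on chromosome 1, Rgs5, had a mean of 0.0927.

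In the R12 group, Rgs12 was at 4.78 to 8.12 and Rgs10 at 2.71 to 3.70, and Rgs14 had a mean of 0.757. In the RZ group, Rgs17 was at 2.59 to 4.28 and Rgs20 had a mean of 0.403. Rgs22 was at or near 0. Other genes that the rule allows, among them Gnai1, Rgs2 and Rgs16, were not analysed here.

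**Figure D1:**
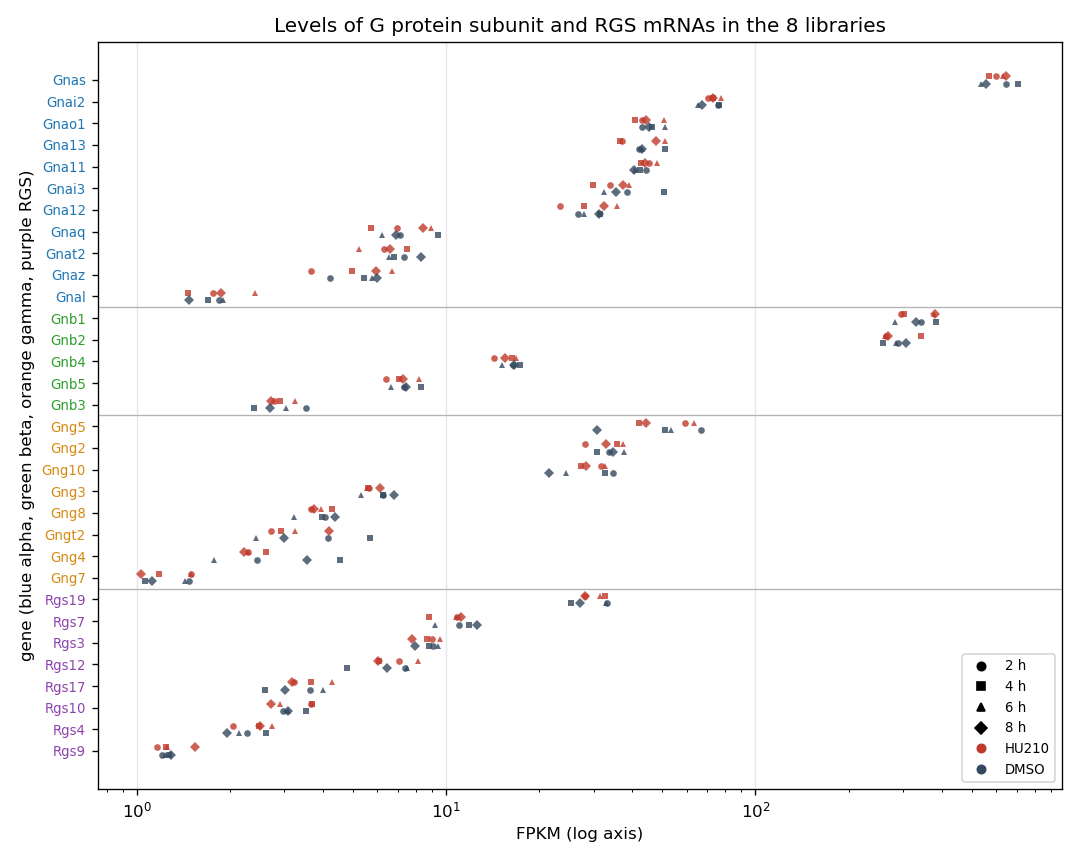
FPKM (log axis) of the 32 members that passed the filter, 1 row per gene, ordered by mean within the alpha, beta, gamma and RGS genes. Red marks are HU210 libraries and dark marks DMSO libraries, with the time point given by the shape. Gnas, Gnb1 and Gnb2 lie at 259 FPKM or more in every library, and red and dark marks overlap for all 32 genes.

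The first question was whether CB1R stimulation shifted these mRNAs in the same direction throughout. The HU210 and DMSO libraries did not overlap for 0 of the 32 members and for 0.743% of all genes. Changes are differences of log2(FPKM + 1) between HU210 and DMSO, a scale that understates those of low genes. It had the same sign at all 4 time points for 2 members, against 7.93% of the 11311 genes tested. These were Gnao1 (-0.0025, -0.18, -0.01 and -0.03) and Gna11 (0.03, 0.0091, 0.23 and 0.12).

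Averaged over the 4 time points with limma, which here takes the time points as the only replicates, 0 members passed an adjusted p of 5% and 0% of all genes did. At an unadjusted p under 0.05 there were 0 members and 1.29% of all genes. Without the 4 h libraries 0 members passed, while 1 gene of all did, and 1 member (Gnat2) had an unadjusted p under 0.05, against 3.44% of all genes. Without the 6 h libraries 0 members passed, and 1 (Gng4) had an unadjusted p under 0.05, against 3.23%. The largest mean differences of members were -0.24 for Gng4 (95% confidence interval -0.61 to 0.14) and -0.16 for Gnat2 (-0.39 to 0.08) on the low side, and 0.10 for Gng10 (-0.23 to 0.43) and 0.10 for Gna11 (-0.09 to 0.28) on the high side. For Gnao1 the mean difference was -0.06 (-0.24 to 0.12), for Gnai2 0.05 (-0.17 to 0.26) and for Gnas 0.01 (-0.27 to 0.29). The intervals of Gnao1, Gnai2 and Gnas lie within 1.3-fold (0.38 on this scale) in both directions.

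**Figure D2:**
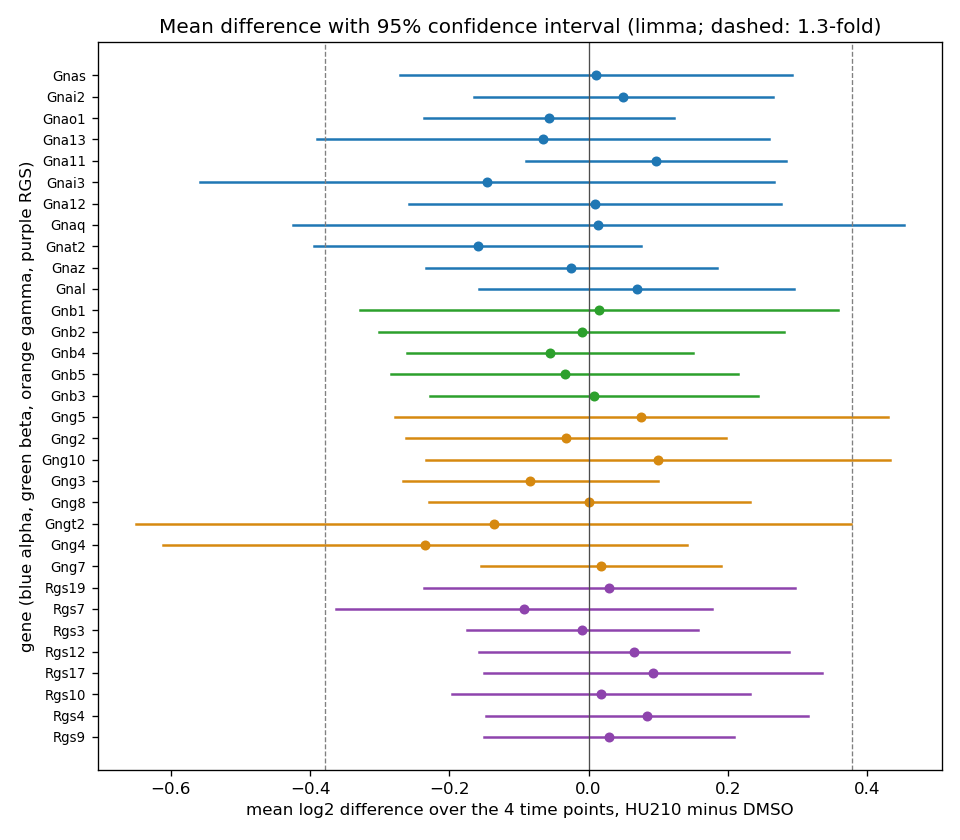
Mean log2 difference between HU210 and DMSO over the 4 time points for each of the 32 members, with its 95% confidence interval from limma (8 libraries, time point as a factor). Every interval spans 0, and the dashed lines mark 1.3-fold. The interval of Gngt2 (-0.65 to 0.38) is the widest.

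The next question was what moved at single time points, where each change rests on 1 library against 1 and has no test. A 1.3-fold change, the lower of the cutoffs used for DEGs in the study's methods, was taken as the bound. Of the 32 members, 22 were past it at no time point, 7 at 1 time point and 3 at 2 or more (Gnaq, Gng4 and Gngt2). Of all 11311 genes, 7333, 2841 and 1137 were, so the members spread much as all genes did.

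At 2 h, 0 members were higher by 1.3-fold, against 1.49% of all genes, and 1 was lower, against 3.91%. The lower one was Gngt2, at 2.73 FPKM with HU210 and 4.14 with DMSO (-0.46). The change was below 0 for 29 of 32 members, against 64% of all genes, with a median of -0.13 against -0.05. With each library centred on its median, 23 members stayed below 0 and the median of the members was -0.08, against -0.0033 for all genes. The share of all genes on each side of 0 after centring is not given here.

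All 5 beta subunits were below 0 at 2 h, between -0.26 (Gnb3) and -0.13 (Gnb2). Rgs10, a regulator of Gi subunits, had the highest change of the 32 at 2 h, at 0.23, with 3.65 FPKM against 2.97. The median of the 8 RGS genes was -0.04, and it took the other sign (0.0038) after centring.

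At 4 h, 6 members were lower by 1.3-fold (19.9% of all genes were) and 1 was higher (8.96% were). The lower ones were 3 alpha subunits of 3 families, 2 gamma subunits and 1 RGS gene. Gnai3 was at 29.9 FPKM against 50.8 (-0.75), Gnaq at 5.71 against 9.39 (-0.63), and Gna13 at 36.5 against 51.1 (-0.47). Among gamma subunits, Gngt2 was at 2.92 against 5.68 (-0.77) and Gng4 at 2.62 against 4.53 (-0.61).

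Rgs7 was at 8.83 against 11.9 (-0.39). The single member higher by 1.3-fold was Gnb2, at 344 against 259 (0.41), while Gnb1 was at 303 against 384 (-0.34). Nearest below the bound on the high side were the RZ genes Rgs17 (0.37) and Rgs19 (0.36) and the R12 gene Rgs12 (0.29).

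The split at 4 h depended on the scaling. The median over genes of the HU210 library of 4 h lay 0.10 below that of its DMSO library on the log2 scale. With each library centred on its median, 4 members were lower (13.3% of all genes) and 4 higher (14.7%) by 1.3-fold, and the median of the 32 was 0.0093 in place of -0.09. The change was below 0 for 21 of 32 members (59% of all genes), and for 16 after centring, where the median of all genes was 0.02. Gna13 (-0.37) and Rgs7 (-0.29) were then no longer past the bound. The RGS genes Rgs12 (0.39), Rgs17 (0.47) and Rgs19 (0.46) came past it on the high side, beside Gnb2 (0.51).

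The change at 4 h also went with base composition. Over all 10590 genes with a GC content, the Spearman correlation of the change with GC was 0.53, and over the 32 members it was 0.29, as a description across genes that share the same 2 libraries. The 16 members of lower GC (36.9% to 49.9%) had a median of -0.23, with 5 lower and 0 higher by 1.3-fold. The 16 of higher GC (50.7% to 59.95%) had a median of -0.0024, with 1 lower and 1 higher. The share of all genes past 1.3-fold in these GC ranges is not given here, so the counts do not set the members apart. After the trend on GC content and transcript length was removed, the medians were -0.14 and -0.18. The Spearman correlation with GC was then -0.16 over the members and 0.04 over all genes.

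After that removal Gnb2 was at 0.14, Gna13 at -0.29 and Rgs7 at -0.30, inside the bound. Gnai3 (-0.52), Gnaq (-0.47), Gng4 (-0.59) and Gngt2 (-0.88) stayed past it. Brought past the bound by the removal were Gnas (-0.52, from -0.31) and Gna12 (-0.39, from -0.16) on the low side and Gng2 (0.42, from 0.20) and Rgs17 (0.75, from 0.37) on the high side. In all, 6 members were then lower by 1.3-fold, against 13.9% of the 10590 genes, and 2 higher, against 4.99%. Measured from the 4 DMSO libraries averaged together, none of the 7 was past it, and Gnai3 was at -0.36 and Gngt2 at -0.25. Fewer of all genes were past it too, with 5.66% lower and 2.07% higher.

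At 6 h, 3 members were higher by 1.3-fold (6.38% of all genes were) and 0 lower (1.72% were). Gnaq was at 8.96 FPKM against 6.23 (0.46), Gnb1 at 378 against 283 (0.42) and Gng10 at 32.6 against 24.4 (0.40). The change was above 0 for 26 of 32 members, against 65.6% of all genes, with a median of 0.21 against 0.06. With each library centred on its median, 20 were above 0 with a median of 0.13, against a median of -0.02 for all genes. Only Gnaq (0.38) of the 3 was still past the bound, which 3.56% of all genes then passed on the high side.

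Among alpha subunits, 9 of the 11 were above 0 at 6 h, with a median of 0.24, which was 0.16 after centring. Gnai2 (0.24), Gnai3 (0.27), Gnas (0.24), Gna11 (0.23), Gna12 (0.34) and Gna13 (0.25) lay close together. Gnao1 (-0.01) and Gnat2 (-0.28) were the other two. The 8 RGS genes had a median of 0.05, and -0.04 after centring.

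At 8 h, 1 member was higher by 1.3-fold (4.38% of all genes were) and 1 lower (1.44% were). Gng5 was at 44.2 FPKM against 30.7 (0.51), and Gng4 at 2.22 against 3.55 (-0.50). Against the mean of the 4 DMSO libraries, Gng5 was at -0.14 and Gng4 at -0.29. Just inside the bound lay Gngt2 (0.38, at 4.18 against 2.99) and Gng10 (0.37, at 28.3 against 21.6). The change was above 0 for 17 of 32 members, against 62.5% of all genes, with a median of 0.03 that was -0.03 after centring. The centred median of all genes was -0.02.

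**Figure D3:**
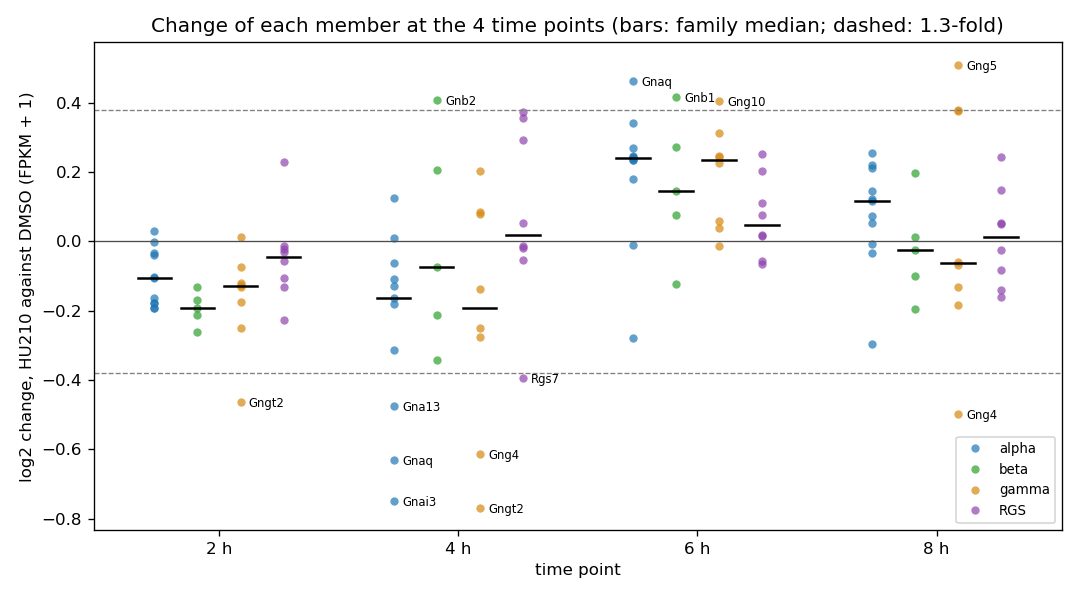
log2 change of FPKM + 1 between the HU210 and the DMSO library of each time point for the 32 members, by kind of gene, with the median of each kind as a bar. Dashed lines mark 1.3-fold and genes past it are named, from Gngt2 (-0.77 at 4 h) to Gng5 (0.51 at 8 h). Of the 8 RGS genes, 1 is past the bound at any time point on this scale, and 3 others come past it at 4 h, and Rgs7 no longer does, when each library is centred on its median.

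Levels were also followed along the hours in serum-free medium, in both treatments together. Whether the authors normalized each time point separately or all 8 libraries together is not given in the sources used here. A slope therefore cannot be told apart from a difference in scaling between the hours. The slope per hour passed an adjusted p of 5% in limma for 0 members and for 0% of all genes. At an unadjusted p under 0.05 there were 4 members, against 11.7% of all genes. Their log2 slopes per hour were 0.09 (SE 0.022, adjusted p 0.30) for Gnaz, 0.06 (SE 0.023, adjusted p 0.41) for Gna12, -0.07 (SE 0.026, adjusted p 0.40) for Gng10 and -0.10 (SE 0.042, adjusted p 0.42) for Gng5. Over the 12 alternatives run for each of these 4, the adjusted p ranged from 0.16 to 1 for Gnaz, from 0.25 to 1 for Gna12 and from 0.22 to 1 for both Gng10 and Gng5.

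The 4 kept their direction in each treatment alone. For Gng5 the slope was -0.16 in the DMSO libraries and -0.03 in the HU210 libraries, and for Gng10 it was -0.12 and -0.01. For Gna12 it was 0.02 with DMSO and 0.09 with HU210, and for Gnaz 0.07 and 0.10. Without the 8 h libraries the slope of Gng5 was -0.03, and without the 2 h libraries that of Gnaz was 0.04 and that of Gna12 was 0.02.

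Whether the difference between HU210 and DMSO itself changed with the hour was tested by the interaction. It passed an adjusted p of 5% in limma for 0 members and for 0% of all genes, and an unadjusted p under 0.05 for 2 members, against 2.91% of all genes. These were Gng10, at 0.11 per hour (SE 0.041, adjusted p 0.96), and Gngt2, at 0.18 per hour (SE 0.072, adjusted p 0.96), with the adjusted p between 0.65 and 1 over the alternatives. In both genes HU210 was lower than DMSO at 2 h and 4 h and higher at 6 h and 8 h.

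That order, noticed in the values and then counted, held for 13 of the 32 members, against 25.1% of all genes. They were the alpha genes Gnai2, Gnai3, Gnal, Gnas, Gnaq, Gna12 and Gna13, Gnb1, the gamma genes Gng5, Gng10 and Gngt2, and Rgs4 and Rgs9. The medians of the libraries shifted in the same order, by -0.05, -0.10, 0.08 and 0.06 between HU210 and DMSO. With each library centred on its median the order held for 7 members (Gnai3, Gnas, Gna13, Gnb1, Gng5, Gng10 and Gngt2), against 12.9% of all genes. With the GC and length trend removed it held for 15 of 32, against 26.1%. No test was made of these shares.

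**Figure D4:**
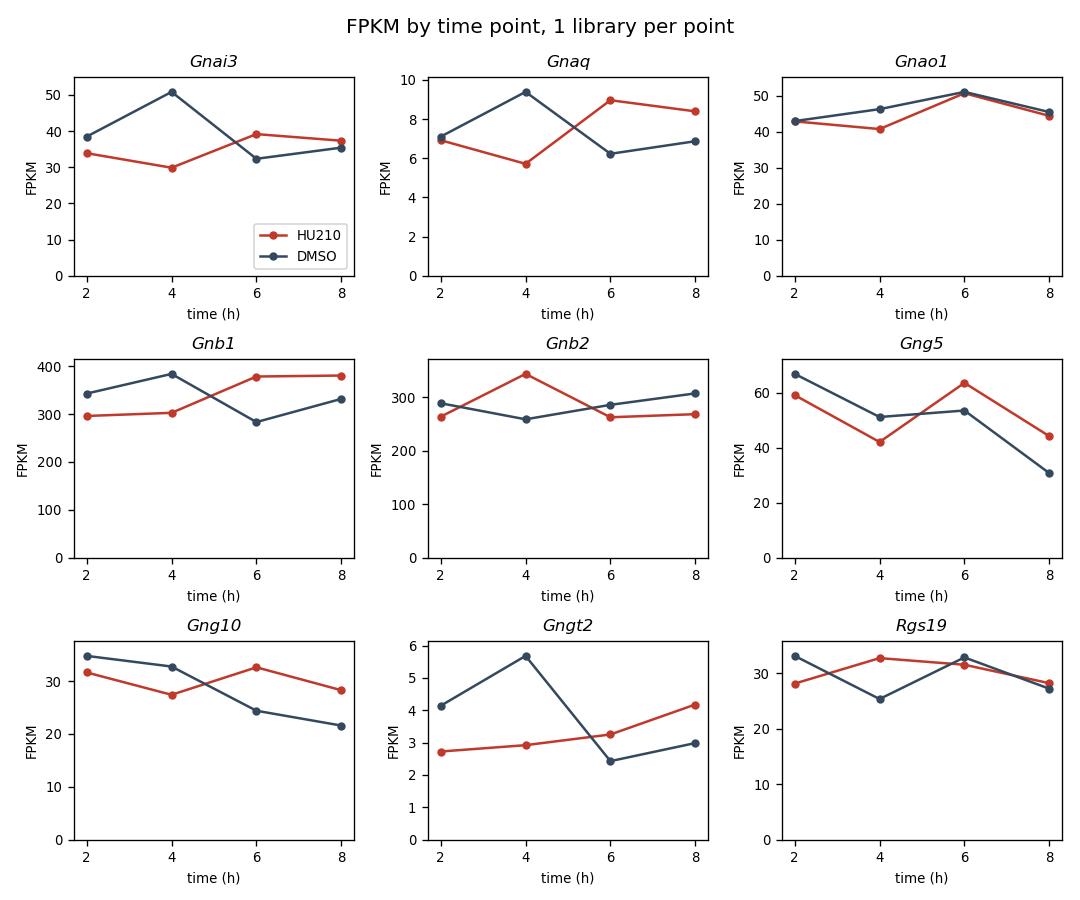
FPKM by time point for 9 members, with HU210 libraries in red and DMSO libraries in dark, 1 library per point and linear axes that start at 0. In 6 of the panels (Gnai3, Gnaq, Gnb1, Gng5, Gng10 and Gngt2) HU210 lies below DMSO at 2 h and 4 h and above it at 6 h and 8 h. Gnao1 ranges from 40.7 to 51.1 and Rgs19 from 25.3 to 33.1 over the 8 libraries.

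Members varied about as much as other genes: the median SD of log2(FPKM + 1) over the 8 libraries was 0.14 for the 32 members and 0.15 for all genes tested. Gng5 (0.36), Gngt2 (0.32) and Gng4 (0.32) varied most, and Rgs9 (0.07), Gna11 (0.08) and Gnb4 (0.09) least.

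The other genes of the G protein cycle were taken from a list of 48, of which 42 were listed and 28 passed the filter. Of the 28, 0 were past 1.3-fold at 2 h and at 6 h, 2 were higher and 5 lower at 4 h (8.96% and 19.9% of all genes), and 1 was higher at 8 h (4.38%). In limma 0 of them passed an adjusted p of 5% for the mean difference, the slope or the interaction. At an unadjusted p under 0.05 there were 0, 2 and 0 of the 28, against 1.29%, 11.7% and 2.91% of all genes, the 2 being the slopes of the guanine nucleotide exchange factors Arhgef11 (0.05 per hour) and Arhgef12 (0.04 per hour), which act below G12 and G13.

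By group, 10 of 17 receptor-independent regulators and chaperones passed the filter, as did 9 of 9 other proteins with an RGS domain, 6 of 8 receptor kinases and arrestins and 3 of 10 effectors. None of the 4 anchors of R7 RGS proteins did, although Rgs7 and Gnb5 were expressed. Snx14, a sorting nexin with an RGS domain, was the one gene of the list past 1.5-fold at any time point. It was at 17.2, 9.48, 18.4 and 16.8 FPKM with HU210 and 14.7, 13.5, 14.4 and 10.5 with DMSO, so that its change was 0.63 at 8 h, and 0.60 with the GC and length trend removed.

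The receptor itself, Cnr1, was at 15.5, 18.3, 27.9 and 20.8 FPKM with HU210 and 17.3, 26.96, 20.2 and 24.7 with DMSO. Its changes were -0.16, -0.53, 0.45 and -0.24. Of all genes, 19.9% were lower by 1.3-fold at 4 h and 6.38% higher at 6 h. With the GC and length trend removed Cnr1 was at -0.31 at 4 h, inside the bound, and at 0.39 at 6 h.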

How the data were processed

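FPKM of 8 N2A libraries were used. The authors aligned reads to mm9 with TopHat 2.0.8 (bowtie 2.1.0, samtools 0.1.7) on Ensembl models, with no search for new junctions. They computed FPKM with Cufflinks, corrected for fragment bias and multiply mapped reads and normalized to the upper quartile. The FPKM were deposited by the authors with 1 added, which was subtracted here. The version of Cufflinks and the use of strand are not given in the sources used here. The authors' log2 fold change, test statistics, p-value, q-value and call columns, and their separate DEG table, were not used.

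limma 3.58.1 (R 4.3.3) was fitted on log2(FPKM + 1) for the 11311 genes listed in all 8 libraries with a mean FPKM of at least 1, with Benjamini-Hochberg adjustment over all of them. The fits were HU210 against DMSO with time point as a factor, the slope per hour with treatment, and their interaction. The 2 libraries of a time point were paired by their hour, and with 1 library per condition p-values measure only the spread between these libraries. GC content and length came from the longest coding GENCODE vM1 transcript, and their trend was removed by loess (span 0.3). On simulated data with 200 changed genes among 11311, the mean difference recovered 79% of changes of 1 on the log2 scale. The simulated noise was independent between libraries, without the GC trend and the shifts of library medians seen in the real ones. Recovery of 1.3-fold changes was not simulated. Members and gene lists were chosen with earlier results of these data known. Any member could be named, and partner genes when past a test or 1.5-fold. Figures were drawn with matplotlib 3.10.9 in Python 3.11.15.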

Additional observations from a re-analysis of the deposited data

Results flagged for a closer look

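The 4 libraries of a treatment, which stand at different hours and are not replicates, were searched for a value far from the other 3 with Dixon's criterion. There were 66 such sets of 4, from the 33 members listed in all libraries with at least 1 FPKM in some library. Of these sets, 4 were past the criterion, close to the rate of about 1 in 20 that chance gives. The rate over all genes is not given here, so the count does not set the members apart. All 4 of the values were at 4 h. The 4 h libraries also stood apart over all genes in their Spearman correlation with GC content (0.47 with HU210 and -0.48 with DMSO). Gna13 was at 51.08 FPKM in the DMSO library of 4 h against 42.2 to 43.0 in the other DMSO libraries. Gnb2 was at 343.7 in the HU210 library of 4 h against 262.6 to 268.3. Rgs7 was at 8.826 in the HU210 library of 4 h against 10.8 to 11.2. Gng13, which encodes the gamma subunit of taste and olfactory cells, was at 3.044 in the DMSO library of 4 h and at 0 to 0.111 in the other DMSO libraries. The exons of Gng13 share 399 bp with Chtf18 on the opposite strand. Gng13 had a mean of 0.449 FPKM, under the filter of the fits, and it entered this search only through that one high value, so its place among the 4 was set by its choice.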

How the results depend on the processing

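No member passed an adjusted p of 5% under any of the 11 alternatives for the mean difference, the 13 for the slope or the 10 for the interaction. With a time point left out the count stayed between 0 and 0. Without the replicate block (time point not in the model), the mean difference called 0 members and 94 of 11311 genes had an unadjusted p under 0.05. Counts past 1.3-fold, which have no test, moved. Against a bound of 1.5-fold they were 0, 4, 0 and 0 in order of time, in place of 1, 7, 3 and 2. With a mean FPKM of at least 5 they were 0 at 2 h and 1 at 8 h, and with a pseudocount of 0.1 the count at 8 h was 4. The share of all genes is not given here for the 1.5-fold bound, the mean FPKM of at least 5 or the pseudocount of 0.1. Centring each library on its median gave 1 at 6 h, on the high side, against 3.56% of all genes. With the mean of the 4 DMSO libraries as the reference they were 1 at 2 h, 0 at both 4 h and 8 h and 1 at 6 h. At 2 h it was Gnaz (-0.44) in place of Gngt2, on the low side, against 4.36% of all genes. At 6 h it was Gnat2 on the low side (-0.40), against 1.38%, and none of the 3 counted before. On the high side 2.71% of all genes were past the bound at 6 h. At 8 h 1.85% were higher and 1.25% lower, and the shares at 4 h are given above. Gng5 at 8 h turned from 0.51 to -0.14. Of the 13 changes past 1.3-fold, 13 stayed past it with a pseudocount of 0.1, 10 with the GC and length trend removed, 9 after centring and 0 against the DMSO mean, where the 4 DMSO libraries lie at other hours. With 1 library per condition and unknown depth per gene, changes of members at a few FPKM, such as Gngt2 and Gng4, have no known precision.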
